A study of Melitaea cinxia with 170 samples.

Results

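The comparison between islands in male Glanville fritillaries (Melitaea cinxia) after flight was taken from a thorax RNA sequencing series of 85 butterflies. Its members were the 23 butterflies that the labels give as male and as flown, 11 from AL (Åland) and 12 from PT (Pikku Tytärsaari), both islands in the Baltic Sea. At the 1 h time point 6 AL and 6 PT males had been frozen a mean of 62 min after their flight treatment began (range 56 to 69 min). At the 20 h time point 5 AL and 6 PT males had been caged overnight with food and frozen after a mean of 20.5 h (range 17 to 24 h). The other males were controls that went through the same conditions without flight, 4 from AL (2 at each time) and 5 from PT (3 at 1 h, 2 at 20 h). The flown females were 17 AL and 19 PT butterflies, and the unflown females were 8 AL and 9 PT butterflies. Every butterfly was a separate individual and gave 2 libraries, with mean inserts of 450 and 650 nt, whose counts were summed. Where single butterflies are mentioned, their replicate numbers only name them.

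The Glanville fritillary lives in patchy dry meadows, and in Åland its local populations go extinct and are founded again by dispersing butterflies. Pikku Tytärsaari holds a small and isolated population. The thorax carries the wings and is filled mostly by flight muscle, which burns sugars and fats at very high rates in flight, together with fat body, tracheae, nerve and cuticle-forming cells. A difference in a whole-thorax RNA level can come, among other sources, from the amount of RNA per cell or from the number of cells of a type. These cannot be told apart here. Whether reads of both islands were assigned equally well to the gene models was not tested. The gene models carry project identifiers only, and 0 of 16667 could be found among the gene names of the reference, so genes are described by identifier, level and difference. For the same reason the flight muscle and other cell types of the thorax were not checked by their marker genes.

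Totals per flown male ran from 2358794 to 6944328 counts (median 4904550), with 3313681 to 6944328 in AL males and 2358794 to 6021229 in PT males. The mean totals were 4966000 ± 1174000 counts (SD) over the 11 AL males and 4590000 ± 1219000 over the 12 PT males. The 10 most abundant genes held 30.8% ± 3.05 of an AL male's counts and 29.4% ± 2.68 of a PT male's. After all males were thinned to 2358794 counts, 8439 ± 436 genes were detected per AL male and 8416 ± 277 per PT male. None of these measures, nor the TMM scaling factor, differed between islands beyond the spread between males (permutation tests, 2-sided, 100000 resamples, p = 0.26 to 0.92, adjusted p = 0.907 to 0.92). One AL male at 20 h, replicate 2, stood apart from its group. Its expression deviated from its own group by a median of 0.917 on the log2 scale, and its 10 most abundant genes held 23.8% of its counts, the lowest share among the 23 males.

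The first question was how far the thorax transcriptomes of the islands differ in males that have flown. Of 7200 genes with enough counts to test, 1439 differed between AL and PT males with time as a covariate (edgeR quasi-likelihood F test, Benjamini-Hochberg adjusted p under 0.05). These were 20.0% of the genes tested. Levels were higher in AL in 789 genes (11%) and higher in PT in 650 genes (9.03%). The median size of the difference over the 1439 genes was 1.39 on the log2 scale, compared with 0.51 over all 7200 genes. It was 1.52 in the genes higher in AL and 1.24 in the genes higher in PT. The median signed difference over all genes was 0.01. Without replicate 2 of the AL males at 20 h, 1546 genes were called, 852 in favour of AL and 694 in favour of PT. Scaling by DESeq2 size factors in place of TMM gave 1423 genes, 790 of them higher in AL. With the 450 or the 650 nt libraries alone, 872 or 958 genes were called.

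**Figure D1:**
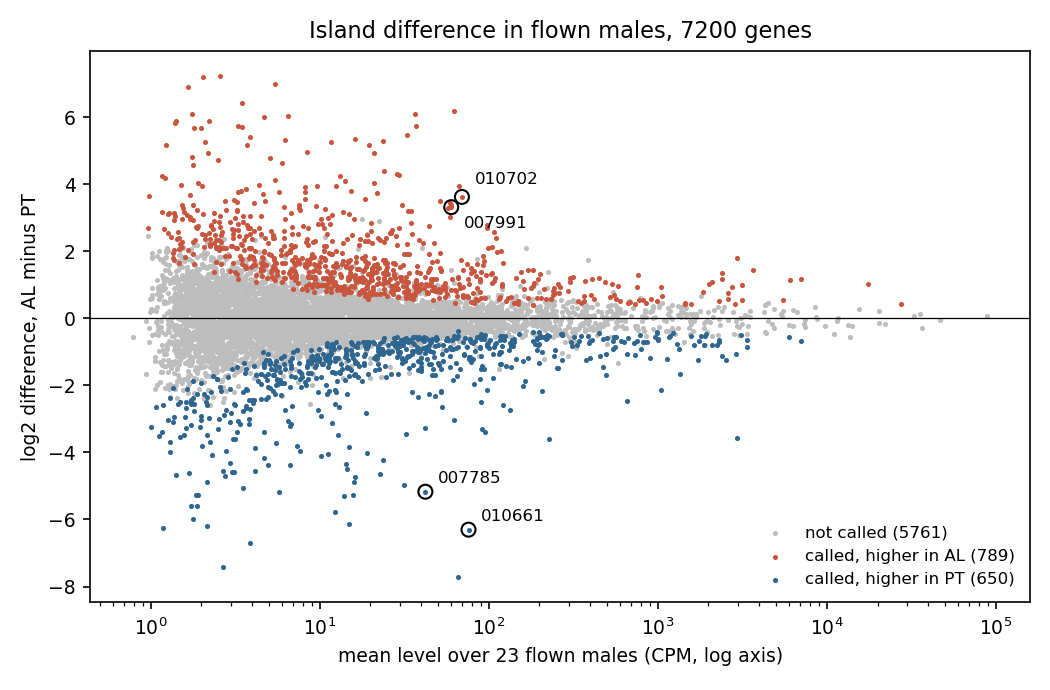
Each point is 1 of 7200 genes, with its mean level over the 23 flown males in CPM on a log axis and its log2 difference, AL minus PT, on the vertical axis. Red points are the 789 genes called higher in AL, blue points the 650 called higher in PT, and grey points were not called. The circled genes, labelled with the last digits of their identifiers, are the 4 described in the text.

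In 87 genes the highest male of one island was below the lowest male of the other, with AL above PT in 55 and below it in 32. These were 1.21% of the genes tested, and there were 50 with the 450 nt libraries alone. The 4 genes described next were taken from the 67 of these genes that averaged at least 5 CPM (read counts scaled to a common library total), as those with the widest gaps between the islands, 2 in each direction. Their gaps are therefore how they were chosen and not a further result.

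MCINXTMP_010702 was higher in AL. At 1 h its level ran from 76.9 to 231 CPM in AL males (median 108) and from 6.40 to 17.6 CPM in PT males (median 9.83). At 20 h it ran from 90.3 to 178 CPM in AL males (median 158) and from 5.02 to 21.1 CPM in PT (median 10.6). The lowest AL male thus stood well above the highest PT male at both times. The log2 difference was 3.63 ± 0.26 (SE, 11 against 12 males; edgeR adjusted p = 5.14e-11).

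MCINXTMP_007991 was also higher in AL, at 77.9 to 198 CPM in AL males at 1 h (median 141) and 9.23 to 20.5 CPM in PT males (median 13.9). At 20 h its levels were 63.8 to 110 CPM in AL (median 67.6) and 3.89 to 10.96 CPM in PT (median 8.22). The islands were separate at both times, with log2 differences of 3.30 ± 0.29 at 1 h and 3.34 ± 0.30 at 20 h. Over both times it was 3.32 ± 0.20 (edgeR adjusted p = 1.04e-12).

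MCINXTMP_007785 was close to absent in AL and moderately abundant in PT. AL males had 0.559 to 3.97 CPM at 1 h (median 2.08) and 0.441 to 5.19 CPM at 20 h (median 0.922). PT males had 67.5 to 100.3 CPM at 1 h (median 77.2) and 54.2 to 111 CPM at 20 h (median 79.5). The AL values rest on at most 31 reads per male, and the PT values on up to 556. The log2 difference was -5.17 ± 0.32 (edgeR adjusted p = 1.04e-12).

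MCINXTMP_010661 showed the same direction with a far wider spread within PT. AL males had 0 to 5.61 CPM at 1 h, with no read in 1 male, and 0.185 to 2.29 CPM at 20 h. PT males had 39.9, 42.8, 53.5, 89.2, 290 and 409 CPM at 1 h, and 34.8, 54.2, 54.7, 115, 200 and 346 CPM at 20 h. The PT males thus differed among themselves about as widely at one time as at the other, and every one was above every AL male. The log2 difference was -6.30 ± 0.63 (edgeR adjusted p = 2.14e-07).

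**Figure D2:**
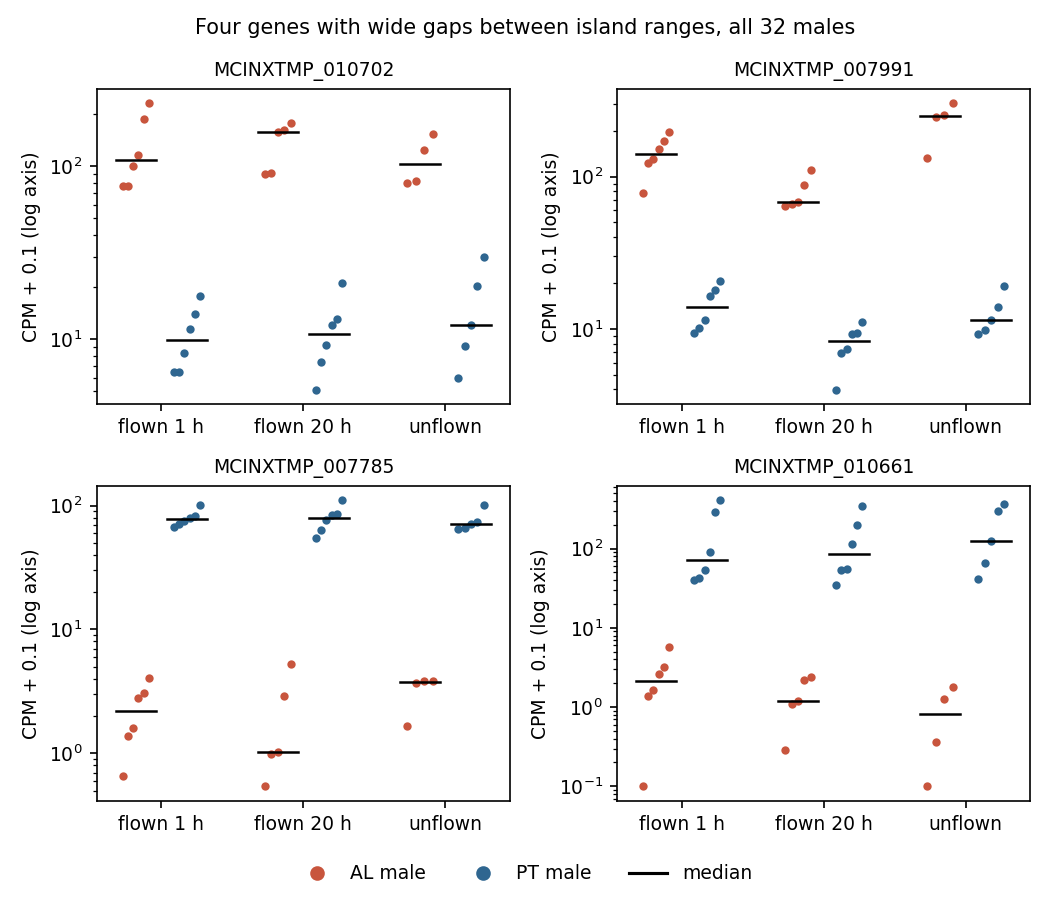
Each point is 1 male, with its level in CPM plus 0.1 on a log axis, by island (AL red, PT blue) in males flown at 1 h, flown at 20 h and unflown; black lines are medians. In all 4 genes the AL and PT males do not overlap, in flown or in unflown males.

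All 4 genes held the same sides in the unflown males, which had no part in choosing them. MCINXTMP_010702 ranged from 80.2 to 153 CPM in the 4 unflown AL males and from 5.86 to 29.7 CPM in the 5 PT males, a log2 difference of 2.86 ± 0.43 (edgeR adjusted p = 4.33e-05). MCINXTMP_007991 ranged from 132 to 303 CPM and from 9.11 to 19.0 CPM, a difference of 4.22 ± 0.36 (adjusted p = 3.21e-10). MCINXTMP_007785 ranged from 1.57 to 3.72 CPM in AL, compared with 64.1 to 102 CPM in PT, a difference of -4.57 ± 0.49 (adjusted p = 1.37e-07). No AL male reached the level of any PT male in this gene. MCINXTMP_010661 ranged from 0 to 1.67 CPM in AL, compared with 41.6 to 362 CPM in PT, a difference of -7.82 ± 1.24 (adjusted p = 0.000345). In flown females the differences of the 4 genes were 3.12 ± 0.23, 3.00 ± 0.17, -4.57 ± 0.32 and -6.60 ± 0.66 in the same order. The wide range of MCINXTMP_010661 in PT males was also present in the 19 flown PT females, at 11.2 to 687 CPM (median 90.1), and there it overlapped the AL females, whose highest value was 13.5 CPM.

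Among the called genes, the split between islands was counted by the level of the gene and the size of the difference. Whether the split changes with either was not tested. Among the 2465 genes averaging under 5 CPM, 12.8% were called, with AL the higher island in 191 and PT in 125. Among the 3436 genes at 5 to 50 CPM, 21.7% were called, 428 higher in AL and 316 in PT. The balance turned at higher levels, with 130 against 155 genes among 1027 at 50 to 500 CPM (27.8% called) and 40 against 54 among 272 at 500 CPM or more (34.6% called). AL was therefore the higher island in 58.4% of the called genes under 50 CPM and in 44.9% of those at 50 CPM or more. In the 12 males at 1 h alone, the share at 50 CPM or more was 55.4%, on the other side of even. Of the 100 most abundant genes, 18 were called higher in AL and 14 higher in PT. More abundant genes were also measured more precisely: the median SE fell from 0.66 on the log2 scale under 5 CPM to 0.18 at 500 CPM or more.

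By size, 428 of the called genes differed less than 2-fold, 187 with the higher level in AL and 241 in PT. Of the 1011 genes that differed 2-fold or more, 602 were higher in AL and 409 in PT. The split was 336 against 241 at 2 to 4-fold and 220 against 127 at 4 to 16-fold. Over 16-fold it was nearly even, at 46 against 41. Some of these large differences were close to presence against absence. In 3 tested genes all 12 PT males had 0 reads and AL levels averaged up to 5.36 CPM, and in 2 all 11 AL males had 0 reads and PT levels averaged up to 5.17 CPM. These 5 genes could pass the filter on low counts only through the island where they had reads, so their being called is no further evidence, and their fitted folds depend on a prior count.

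**Figure D3:**
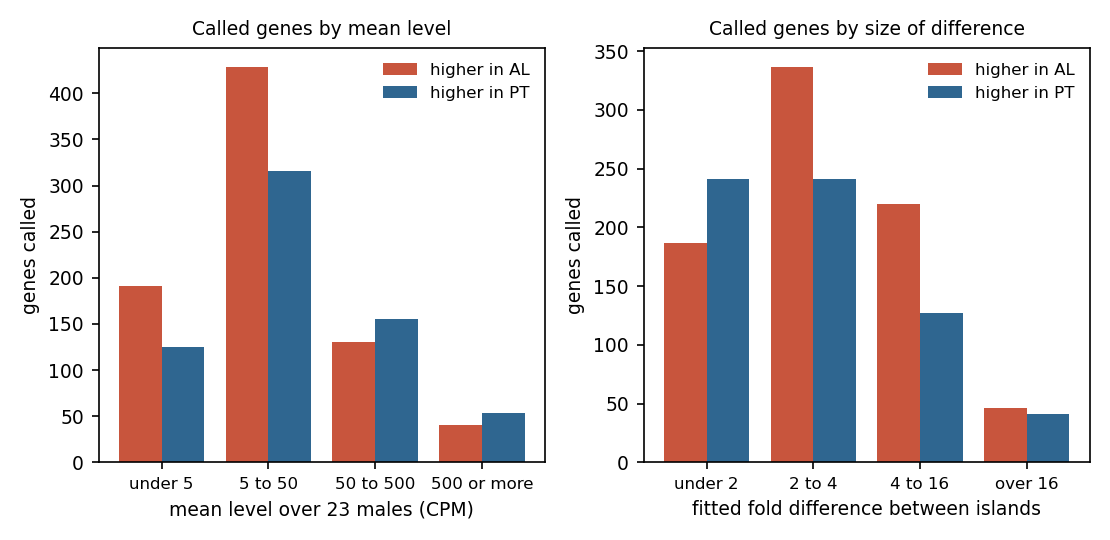
Bars give the number of genes called higher in AL (red) and higher in PT (blue), on the left by mean level over the 23 males in CPM and on the right by fitted fold difference. AL leads under 50 CPM, by 428 to 316 at 5 to 50 CPM, and PT leads above it; AL leads by 220 to 127 at 4 to 16-fold.

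In the flown males 30.4% of all counts fell on the 10 most abundant genes, and 2 of them were called (20%), both higher in AL, beside 20.0% of all genes tested. The median size of the difference over the 10 was 0.15 on the log2 scale and the largest was 1.02. Among the 100 most abundant, which held 66.3% of the counts, 32 were called (32%), 18 higher in AL and 14 in PT. The median size over these 100 genes was 0.28, beside 0.51 over all genes tested, and the largest was 3.56. With those 100 genes left out of the fit, 1383 genes were called.

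The next question was whether the island difference depended on the time since flight. In the fit of all 23 males, 800 genes differed between islands at 1 h (11.1% of the genes tested) and 636 at 20 h (8.83%); DESeq2 called 970 at 20 h. No gene passed the test of the difference between these effects (0% called). Before adjustment 522 of the 7200 genes had a p under 0.05, where chance alone gives a share of about 0.05. DESeq2 called 40 of the 1853 genes to which it gave an adjusted p, and limma voom called 0 of 7200. The 2 times were also fitted alone, on separate males. At 1 h alone 774 of 5611 genes were called (13.8%), and at 20 h alone 380 of 6119 (6.21%). Of the 774 genes, 746 could be tested at 20 h, where 693 kept their direction (92.9%), compared with 69.5% of all 5405 genes tested at both times. Of the 746 genes, 223 were also called at 20 h in the same direction and 0 in the opposite one. In the reverse order, 337 of 352 genes called at 20 h kept their direction at 1 h (95.7%). Across all 5405 genes the log2 differences at the 2 times had a Pearson r of 0.66, a description over genes, which are not independent replicates.

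The gene with the smallest p for a change of the island difference with time, among those averaging 5 CPM or more, was MCINXTMP_015357. In AL it ran from 43.0 to 168 CPM at 1 h (median 66.8) and from 182 to 454 CPM at 20 h (median 314). PT males ran from 23.9 to 47.2 CPM at 1 h (median 29.3) and from 12.9 to 49.6 CPM at 20 h (median 30.2). The islands overlapped slightly at 1 h and were separate at 20 h, where all 5 AL males were also above all 6 AL males of 1 h. The log2 difference was 1.32 ± 0.34 at 1 h and 3.53 ± 0.37 at 20 h. Their difference of 2.21 ± 0.49 missed the threshold (edgeR adjusted p = 0.269 over 7200 genes). DESeq2 gave an adjusted p of 0.0156, over 1853 genes only. In unflown males its levels were 28.5 to 86.9 CPM in AL and 16.0 to 43.3 CPM in PT.

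Unflown males gave the island difference in butterflies that had not gone through the flight treatment. Of 9292 genes tested, 459 differed (4.94%), 257 higher in AL and 202 in PT; DESeq2 called 801. The genes called in flown males were followed there, since the 9 unflown males had no part in calling them. Calls in unflown males came from the fit of all 32 males, so gene variances there were estimated mostly from flown males. The numbers of genes called in both groups are therefore not independent, while the directions rest on the levels of the unflown males. Of the 1439 genes, 1303 differed in the same direction in unflown males (90.5%), compared with 69.0% of all 7200 genes tested in both. Of the 1439 genes, 307 were themselves called in unflown males in the same direction and 2 in the opposite one. Their median difference in the direction of the flown males was 1.03 on the log2 scale, beside 1.39 in the flown males that had selected them. With 1 male left out, the count stayed within 1.5 times of 459 in 26 of 32 fits. It was lower in the other 6, each of which left 1 unflown male in its group of 2. More genes also passed the low-count filter in those fits. They thus cannot show whether the count rested on particular males.

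**Figure D4:**
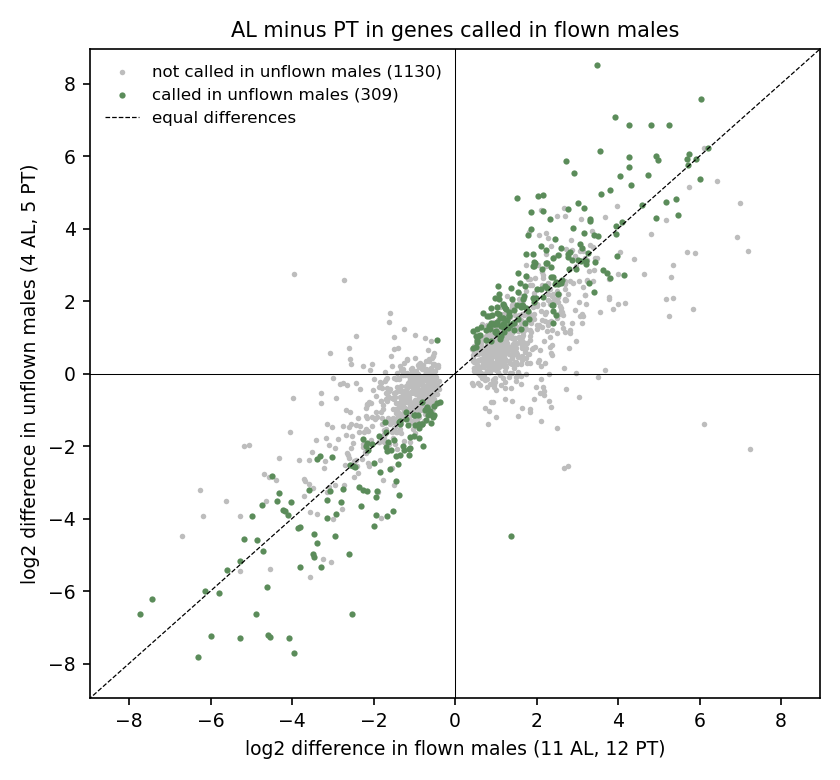
Each point is 1 of the 1439 genes called in flown males, with its log2 difference, AL minus PT, in flown males on the horizontal axis and in unflown males on the vertical axis; green points are the 309 genes also called in unflown males. The gap around 0 on the horizontal axis comes from choosing called genes, and 1303 points lie in the quadrants where both groups have the same sign.

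Large differences in unflown males were found in genes whose level varied widely between flown males. MCINXTMP_006482 had 17.2 to 33.3 CPM in the 4 unflown AL males and 0 to 0.597 CPM in the 5 PT males (log2 difference 7.07 ± 1.50, edgeR adjusted p = 0.00495). In flown males it had 0 to 40.2 CPM in AL and 0 to 3.80 CPM in PT, overlapping, with a difference of 3.91 ± 0.79 (adjusted p = 0.000719). Its change between flown and unflown males, -3.21 ± 1.62, did not pass the test (edgeR adjusted p = 0.642). MCINXTMP_006070 had 0.219 to 36.4 CPM in unflown AL males and 0 to 0.337 CPM in PT (7.56 ± 1.77, adjusted p = 0.0111), and in flown males 0 to 57.3 CPM and 0 to 0.597 CPM (6.05 ± 0.94, adjusted p = 3.01e-05). Both genes were thus near or at the detection limit in most PT males. Their calls in unflown males ended only in fits that left 1 male in a group. The difference of MCINXTMP_006482 was 6.46 without PT unflown replicate 2 at 20 h. That of MCINXTMP_006070 was 4.86 without AL unflown replicate 1 at 20 h. With all males, limma voom gave MCINXTMP_006070 an adjusted p of 0.0569. In the other direction, MCINXTMP_009760 had no read in any of the 4 unflown AL males and 1.58 to 120 CPM in the 5 PT males (edgeR adjusted p = 0.0239). The 120 CPM was from PT replicate 2 at 1 h, and the next unflown PT male had 5.37 CPM. Without that male the gene would not have averaged the 5 CPM needed to be named. In flown males MCINXTMP_009760 was 0 to 7.77 CPM in AL and 0 to 34.2 CPM in PT, which did not pass the test over both times (-2.50 ± 1.21, adjusted p = 0.15). Its change between flown and unflown males, 5.82 ± 2.83, did not pass either (edgeR adjusted p = 0.624). The flown males did differ at 1 h, by -5.98 ± 1.49 (adjusted p = 0.00795), and not by the test at 20 h, at 0.04 ± 1.23 (adjusted p = 0.992); the change with time did not pass either (adjusted p = 0.3003). Its call in unflown males ended in the 6 fits that left 1 male in a group. With all males it missed the threshold with no low-count filter (edgeR adjusted p = 0.0562) and with the 650 nt libraries alone (0.0559).

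Whether the island difference itself changed between flown and unflown males was tested in the same fit, and no gene passed (0% called). Before adjustment 744 of 9292 genes had a p under 0.05, where chance alone gives a share of about 0.05. DESeq2 called 27 of 8786 genes and limma voom 1 of 9292. The gene with the smallest p among those of 5 CPM or more was MCINXTMP_009097. In unflown males it was at 1.86, 5.85, 25.2 and 71.3 CPM in AL and at 0 to 4.39 CPM in PT. At 1 h after flight 5 AL males had 4.77 to 19.9 CPM and the sixth 0, and at 20 h all 5 AL males were at 0 to 0.509 CPM. The flown PT males had 0.251 to 7.20 CPM at 1 h and 0.574 to 4.97 CPM at 20 h. The islands overlapped at 1 h, where the difference of 1.86 ± 0.78 did not pass the test (edgeR adjusted p = 0.134). At 20 h AL was lower, by -3.78 ± 1.06 (adjusted p = 0.0207), and the change with time did not pass (adjusted p = 0.269). In flown males fitted alone, with island and time as terms, the island difference was -0.13 ± 0.82. The fit of all males, with group means, gave 4.81 ± 1.11 in unflown males. In that fit the flown minus unflown difference was -5.77 ± 1.27 (edgeR adjusted p = 0.129, DESeq2 adjusted p = 0.0145). The -0.13 is from the other fit, so subtracting 4.81 from it does not give -5.77.

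The 2 genes called in both groups of males with opposite signs were picked out after their values were seen. MCINXTMP_000132 ran from 55.9 to 121 CPM in flown AL males (median 68.9) and from 77.0 to 133 CPM in flown PT males (median 105), a difference of -0.46 ± 0.15 (edgeR adjusted p = 0.0317). In unflown males it ran from 134 to 238 CPM in AL males (median 178) and from 55.5 to 127 CPM in PT males (median 101), a difference of 0.94 ± 0.27 (adjusted p = 0.0329). The ranges of flown and unflown PT males overlapped, and those of flown and unflown AL males did not. MCINXTMP_010636 ran from 0.168 to 18.4 CPM in flown AL males and from 0.655 to 11.9 CPM in flown PT males (1.36 ± 0.49, adjusted p = 0.0464), and from 0 to 1.39 CPM and 1.07 to 6.35 CPM in unflown males (-4.49 ± 1.23, adjusted p = 0.0261). Neither passed the test of the change itself (adjusted p = 0.129 for both).

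Females were used to see whether the differences of flown males were present in the other sex. Of 1438 genes called in flown males and tested in flown females, 1358 differed in the same direction (94.4%), compared with 71.9% of all 7189 genes tested in both. Of these genes, 961 were called in flown females in the same direction and 9 in the opposite one, where 28.8% of all genes tested were called. In unflown females 1338 of 1434 genes had the same direction (93.3%), and 672 were called in it and 3 against it, where 15.7% of all genes were called. In unflown males, flown females and unflown females together, 1185 of the 1434 genes tested in all of them kept the direction of the flown males each time (82.6%), compared with 47.4% of all 7146 genes tested in all of them. The groups of females were larger, so their numbers of calls are not set against those of males.

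The same separation was seen when the flown males were reduced to principal components. The first component of the 23 males held 19.5% of the variance, and 0.99 of the variance of its scores lay between the islands. The AL males scored from 34.0 to 50.3 and the PT males from -43.7 to -30.5. Butterflies that had no part in defining the component fell on the side of their island: unflown males scored 23.6 to 27.7 in AL and -34.3 to -27.7 in PT. Flown females scored 20.0 to 33.6 in AL and -34.1 to -25.9 in PT, and unflown females 24.9 to 35.0 and -32.7 to -25.2. None of the 85 butterflies scored on the side of the other island. Components 2, 3 and 4 held 8.68%, 6.54% and 5.49% of the variance. Their scores are uncorrelated with those of the first, so little of the island difference could remain in them (at most 0.005 of each). Time accounted for fractions of 0.33 and 0.49 of components 2 and 3. The share of counts in the 10 most abundant genes accounted for 0.38 of component 2. That component was largely 1 butterfly, AL replicate 2 at 20 h, which scored 103.7 and held 70.7% of its variance, while the other 22 males scored from -33.9 to 13.1. The log of the total accounted for 0.39 of component 4.

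**Figure D5:**
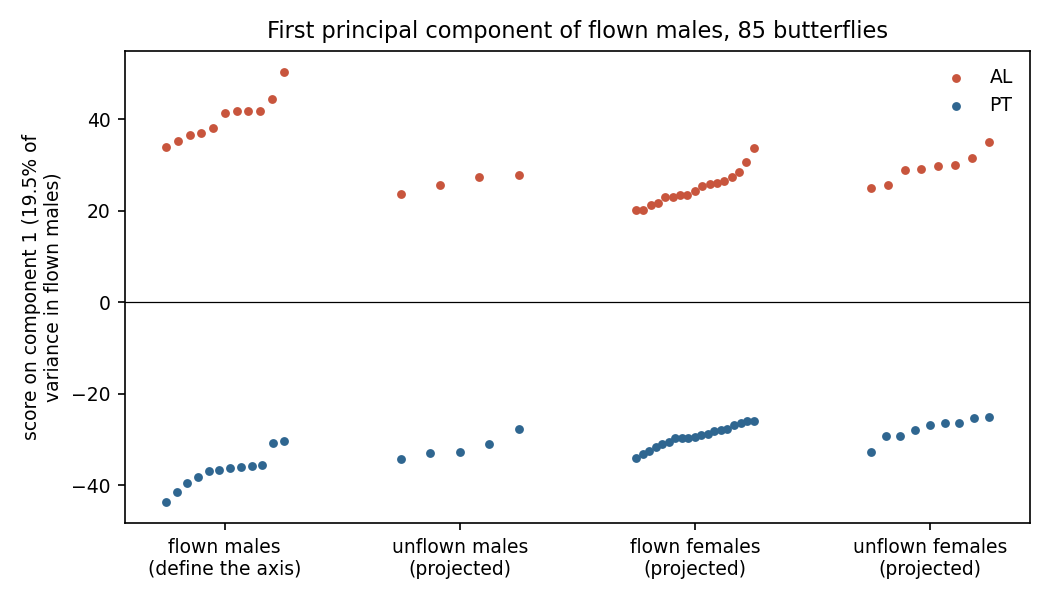
Points are the scores of 85 butterflies on the first principal component of the 23 flown males (19.5% of their variance), AL in red and PT in blue, sorted within each set for display. The other 62 butterflies were projected onto the component; every AL butterfly scores above 0 and every PT butterfly below 0.

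A direct test of the island difference in flown males minus that in flown females called 18 of 8739 genes (0.206%), 11 with a higher and 7 with a lower AL minus PT value in males. Unadjusted, 981 of the 8739 genes had a p under 0.05, where chance alone gives a share of about 0.05. DESeq2 called 102 of 8913 genes and limma voom 56 of 8739. With 1 butterfly left out the count ran from 8, without PT male replicate 1 at 20 h, to 31, without AL female replicate 5 at 1 h. Of the genes named here, MCINXTMP_012699 kept its call with any 1 butterfly left out. Its level was 65.5 to 176 CPM in flown AL males (median 103) and 14.7 to 62.5 CPM in PT males (median 48.1), which do not overlap. In flown females it was 9.61 to 70.9 CPM in AL (median 37.7) and 20.9 to 84.4 CPM in PT (median 39.2), which overlap nearly fully. The island difference was 1.35 ± 0.22 in males and -0.26 ± 0.21 in females, and it differed between them by 1.61 ± 0.33 (edgeR adjusted p = 0.0187). With the 450 nt libraries alone the adjusted p was 0.061. In unflown males the difference of 0.74 ± 0.36 did not pass the test (adjusted p = 0.237). The change between flown and unflown males, 0.59 ± 0.42, did not pass either (edgeR adjusted p = 0.767).

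MCINXTMP_014476 went the other way, with an island difference in flown females and none that passed the test in flown males. Flown males had 14.1 to 94.4 CPM in AL (median 23.6) and 14.1 to 38.9 CPM in PT (median 23.4), and flown females 10.99 to 177 CPM (median 53.7) and 5.46 to 42.3 CPM (median 14.4). The differences were 0.31 ± 0.29 in males and 2.09 ± 0.26 in females, and -1.80 ± 0.41 between them (edgeR adjusted p = 0.0284, and 0.0944 with the 650 nt libraries alone). Without AL female replicate 2 at 1 h or PT male replicate 5 at 20 h the adjusted p was 0.0581 or 0.0537. Its unflown males did differ, at 51.9 to 79.7 CPM in AL and 19.6 to 37.6 CPM in PT (1.38 ± 0.40, adjusted p = 0.0342). The change between flown and unflown males, -1.11 ± 0.46, did not pass the test (edgeR adjusted p = 0.516).

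MCINXTMP_006960 and MCINXTMP_008154 passed narrowly, both at an edgeR adjusted p of 0.0462. MCINXTMP_006960 had 27.0 to 102 CPM in flown AL males and 2.13 to 11.3 CPM in PT males, and 12.9 to 156 CPM and 2.55 to 162 CPM in flown females. Its difference was 3.40 ± 0.29 in males and 1.09 ± 0.34 in females. The highest PT female, replicate 5 at 20 h, had 162 CPM and the next one of its group 19.6 CPM; without it the change of 2.32 ± 0.55 became 1.65 (adjusted p = 0.0607). MCINXTMP_008154 had 1.10 to 24.3 CPM in flown AL males and 3.29 to 25.5 CPM in PT males, and 5.39 to 61.4 CPM and 1.31 to 29.0 CPM in females, a change of -1.996 ± 0.475. The call ended when 1 butterfly was left out in 28 of 59 cases for MCINXTMP_006960 and in 31 of 59 for MCINXTMP_008154, with adjusted p up to 0.072 and 0.071. MCINXTMP_006960 also missed the threshold with the 450 nt (0.061) or 650 nt libraries alone (0.164), with limma voom (0.0917) and with no low-count filter (0.0506). MCINXTMP_008154 missed it with the 450 nt libraries alone, at a change of -1.42 (adjusted p = 0.336), and with the 650 nt libraries alone (0.0549).

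The last comparison was of how much males of one island differed from each other. The median deviation of a male's genes from its own group averaged 0.621 ± 0.112 on the log2 scale over 11 AL males (SD) and 0.556 ± 0.064 over 12 PT males, which did not pass the threshold (permutation test, 2-sided, p = 0.0864). Each male was set against the other males of its group, so values within a group depend on each other. The permutation treated the males as independent and ignored time, so its p here and below is only approximate. Without AL replicate 2 at 20 h, the difference of 0.0651 fell to 0.0321 (permutation p = 0.241). Without AL replicate 3, 4 or 5 at 1 h, or PT replicate 5 at 20 h, the difference was 0.0782, 0.0809, 0.0837 or 0.0806 and its permutation p was 0.0322, 0.0238, 0.0173 or 0.0186. By gene, the median SD across males was 0.85 in AL and 0.77 in PT, and it was higher in AL in 4240 of the 7200 genes (58.9%). Genes are not independent replicates. These SDs include AL replicate 2 at 20 h and were not recomputed without that male, so they are no further evidence of a wider spread in AL.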

How the data were processed

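Thorax RNA was sequenced from 85 butterflies. It was extracted with Trizol, per the labels' protocols, and strand-specific libraries were anchored at the polyA tail, with inserts of 450 and 650 nt for each butterfly. The submitters' processing notes name CASAVA 1.8, TopHat2 2.0.5 and edgeR with no role or order; the genome build, annotation, counting tool and any use of strand were not given in the sources used here. Overlapping genes or close copies may thus share reads. The authors deposited raw read counts per gene model for each library, for 16667 gene models, of which 14546 had a read in the flown males. The authors' deposited normalized table, a signal of unstated scale, was used only as a check and for its list of 8258 genes: 100% of 189934 values equalled the summed counts times 1 factor per butterfly (tolerance 0.0006 plus 1e-06 of the value).

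Totals of the 46 libraries ran from 876636 to 4349250 counts, and no libraries were identical. Counts per butterfly were summed, filtered with filterByExpr (7200 genes holding 99.76% of the counts of flown males), scaled by TMM (factors 0.86 to 1.24) and tested with edgeR 4.0.16 (R 4.3.3, robust quasi-likelihood F test), with island and time as terms. The other comparisons used group means in fits of 23 flown males, 32 males or 59 flown butterflies. Differences of flown males over both times came from the fit with island and time. Printed changes against unflown males or females therefore need not equal the printed differences subtracted. Unflown females were fitted together with the unflown males. P-values were adjusted over all genes of a fit by the Benjamini-Hochberg method. Printed CPM share 1 scale over 85 butterflies; SE is the absolute log2 difference divided by the square root of F, and differences are AL minus PT. The common biological coefficient of variation was 0.64. No batch is labelled. The island and time fits were also run on simulated counts, drawn from the island fit's own means and gene variances. The outcome is not reported here and is no evidence for the results above.

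The genes named for the main comparison were called, averaged 5 CPM or more, had the same direction at both times and the widest gap between island ranges on log2(CPM + 0.5), 2 each way. In other comparisons they were the 2 largest differences each way among called genes of 5 CPM or more or, with no call, the smallest p. The groups, lists and rules were chosen with earlier results of these data known. Alternatives used DESeq2 1.42.0, limma 3.58.1 (voom), other scaling, filters, libraries and fits, and left out each butterfly. Gene lists and cell type markers were not analysed here, since they need gene names.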

Additional observations from a re-analysis of the deposited data

Results flagged for a closer look

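By Dixon's Q test, the largest or smallest value of a group lay far from the rest in 7 of 88 groups examined. The test would flag about 1 in 20 groups of independent, normally distributed values. These groups share butterflies, and their genes were chosen for their differences, so the 7 cannot be set against that rate. In AL males at 1 h, replicate 5 had no read of MCINXTMP_006482 (0 CPM), while the next male had 13.4 CPM. The same male had no read of MCINXTMP_009097 (0 CPM), while the next had 4.77 CPM. In PT males at 20 h, replicate 4 had 0.574 CPM of MCINXTMP_009097 and the next 2.74 CPM. In the same group, replicate 5, which had the lowest total count of the 23 flown males, had 14.7 CPM of MCINXTMP_012699 and the next 45.2 CPM. Among PT females at 20 h, replicate 5 had 162 CPM of MCINXTMP_006960 and the next 19.6 CPM. Replicate 2 of the AL males at 1 h had a TMM factor of 1.16, and the next male of its group 0.94. Replicate 2 of the AL males at 20 h had a median deviation from its group of 0.917 on the log2 scale, and the next male 0.681.

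In 4 named genes the island difference of flown males differed from that of flown females by the test of the difference (edgeR). The change was 2.32 in MCINXTMP_006960, 1.61 in MCINXTMP_012699, -1.996 in MCINXTMP_008154 and -1.80 in MCINXTMP_014476, on the log2 scale. Only MCINXTMP_012699 kept its call with any 1 butterfly left out. The call ended in 28 of 59 such fits for MCINXTMP_006960, 31 of 59 for MCINXTMP_008154 and 2 of 59 for MCINXTMP_014476.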

How the results depend on the processing

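The 4 genes named for flown males kept direction and call under all 14 alternative settings and with any 1 male left out. The count of 1439 stayed within 1.5 times under 10 of 14 settings (up to 1963 with no filter); it was 872 and 958 with the 450 and 650 nt libraries alone, 774 at 1 h alone and 380 at 20 h alone, and 1313 to 1546 with 1 male left out. These 4 settings hold fewer reads or males, but whether this lowered their counts was not tested. With every flown male thinned to the lowest total, 2358794 counts, 1311 genes were called. The median total of a single library was 2320721 counts. At 1 h it was 440 with 450 nt libraries, and at 20 h 970 with DESeq2, 382 with 450 nt and 411 with 650 nt libraries; without 1 male the counts were 624 to 896 and 505 to 641. The change with time called 40 of 1853 genes with DESeq2. In unflown males DESeq2 called 801 genes, 450 nt libraries 239 and 650 nt libraries 290, and 147 to 505 were called with 1 male left out. Flown minus unflown called 27 with DESeq2, 1 with voom and 0 to 1 with 1 male left out (1 without AL unflown replicate 2 at 1 h or PT unflown replicate 2 at 20 h). The 18 genes of the male minus female contrast became 36 with no filter, 102 with DESeq2, 56 with voom, 7 with 450 nt libraries and 35 in the fit of 85 butterflies. They were 8, 9, 9, 11 and 11 without PT males (replicate 1 at 20 h, 2 at 1 h, 5 at 20 h, 1 at 1 h, 4 at 20 h), and 10, 29, 31 and 29 without AL females (2 at 1 h, 3 at 20 h, 5 at 1 h, 6 at 1 h). The AL minus PT difference in spread was 0.0321 to 0.0837 with 1 male left out, in genes detected -46.1 to 108, and in TMM factor -0.0395 to 0.0144; the signs of genes detected and TMM factor turned, and neither was called. With 450 nt libraries alone 50 genes had islands that did not overlap. Alternatives for the counts at each time, the named genes of other comparisons, the shares by level and in unflown males, and the ranges were chosen after seeing the data. The cause of these shifts was not tested. No paired analysis was possible because the labels number no replicates, so no butterflies of the islands share a number. Precision was lowest under 5 CPM, at a median SE of 0.66.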
